A study of Caenorhabditis elegans with 4 samples.

Results

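Chromosome II is 1 of the 5 autosomes of the nematode Caenorhabditis elegans, and the places on it where TBP-1 was found in embryos are described here. The members are all peaks that the list of the whole series places on II, 564 of 4214. Replicate 1 had 229 peaks on II and replicate 2 had 360. Peaks are stretches in which DNA recovered with an antibody was piled up, found by chromatin immunoprecipitation and sequencing (ChIP-seq). The animals were N2, a wild-type strain, as embryos of mixed stage from males and hermaphrodites at 20 °C, and no group carried another allele or treatment. Of 4 samples, 2 were TBP-1 ChIP (SDQ0839 TBP1, an affinity-purified rabbit polyclonal antibody) and 2 were input DNA, whose values were not analysed here. The labels do not tie the replicates to separate cultures, and the spread between them may therefore be technical. Whole embryos were used, so a peak cannot be traced to a cell type.

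TBP-1 is the worm's TATA-binding protein. It is a general transcription factor that sits at promoters and helps to place RNA polymerases I, II and III at the start of genes. Worm autosomes have gene-dense centres and arms that are richer in repeats. Chromosome II is known for clusters of genes for BTB-domain and MATH-domain proteins and F-box proteins, and it also carries core histone genes in a cluster. Peak positions below are on WormBase WS220. No annotation or genome of that build was used here, so no peak was given a gene, an exon or a sequence.

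Peaks on II were about as frequent as its length predicts among the autosomes. II made up 18.5% of the autosomal length, taken up to the last peak of any list, and held 17.3% of the autosomal series-list peaks, 17.5% of those of replicate 1 and 17.7% of those of replicate 2. The 2 replicates averaged 17.6% ± 0.13 (SD, n = 2), and their lists share many peaks. Per Mb, II had 36.9 peaks in the series list, 15.0 in replicate 1 and 23.6 in replicate 2. Against its length share the ratio was 0.93 in the series list (95% Wilson interval 0.87 to 1.01), 0.95 in replicate 1 (0.84 to 1.06) and 0.96 in replicate 2 (0.87 to 1.05). A two-sided exact binomial test was passed in none of the lists (adjusted p = 0.12, 0.51 and 0.51, by the Benjamini-Hochberg method for 5 autosomes in 3 lists, 15 tests). In each list II stood between III, with ratios of 1.18 to 1.19, and V, with ratios of 0.80 to 0.90. With X counted as well, II fell short of its length share in the series list (0.88 times, exact binomial test, adjusted p = 0.0025) and in replicate 2 (0.89 times, 0.028) but not in replicate 1 (0.89 times, 0.10). The choice of chromosomes set beside II thus decided that call. These tests count peaks as independent, which neighbours on 1 chromosome are not, so the p values may be too small.

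**Figure D1:**
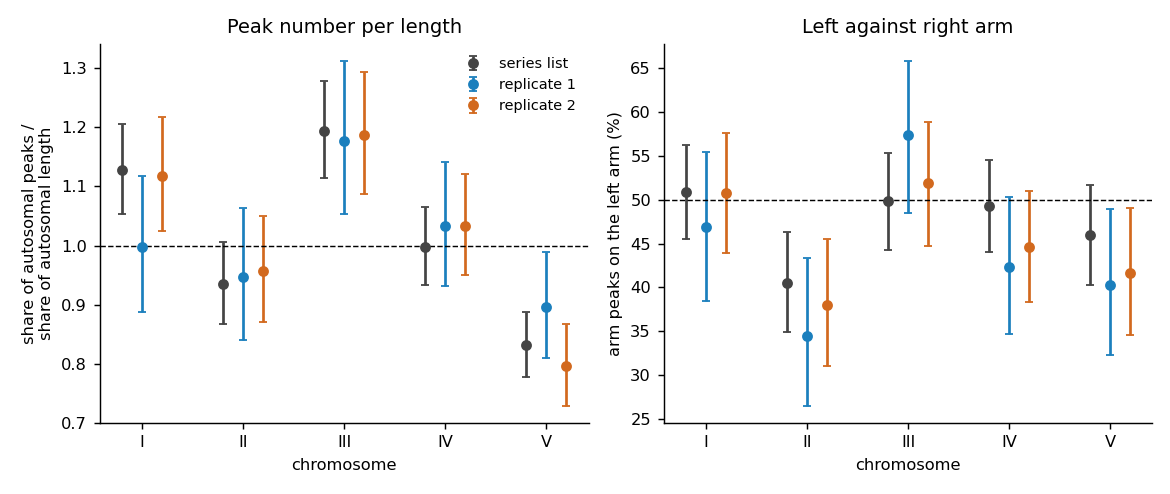
Left: share of autosomal peaks divided by share of autosomal length for each autosome, in the series list (grey), replicate 1 (blue) and replicate 2 (orange). Right: share of the arm peaks that lay on the left arm, in %. Bars are 95% Wilson intervals for peak counting, and dashed lines mark a ratio of 1 and 50%. The intervals of II include 1 on the left and lie below 50% on the right.

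The right arm of II held more peaks than its left arm. Arms were the outer 25% of the length on each side, which puts the centre at 3.82 to 11.5 Mb, and a peak was placed by its midpoint. The left arm had 115 series-list peaks, the centre 280 and the right arm 169. In replicate 1 these counts were 41, 110 and 78, and in replicate 2 they were 65, 189 and 106. Per Mb, the series list went from 30.1 peaks on the left arm to 36.7 in the centre and 44.2 on the right arm. The same order held in replicate 1 (10.7, 14.4 and 20.4) and in replicate 2 (17.0, 24.7 and 27.7).

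Of the arm peaks of II, 40.5% (34.9 to 46.3) lay on the left in the series list, 34.5% (26.5 to 43.4) in replicate 1 and 38.0% (31.1 to 45.5) in replicate 2. Against 50%, all 3 lists passed a two-sided exact binomial test (adjusted p = 0.011 in each, over 15 tests). No other autosome passed that test in any list. This does not show that II differs from the others. V also lay below 50% in each list (45.9%, 40.3% and 41.6%), whereas III had 49.8%, 57.4% and 51.9%. Pooled, the other 4 autosomes had left shares of 49.1%, 46.4% and 47.2%. The difference of II from these did not pass Fisher's exact test (adjusted p = 0.078, 0.094 and 0.13). Without the window at 13500001 to 14000000, chosen for its density after seeing the data, 53.5% of the remaining arm length was on the left, and leaving out a dense stretch of the right arm can only move the share towards balance. The left share was then 46.9%, 42.7% and 41.9%, and no list passed the exact binomial test after adjustment (adjusted p = 0.12, 0.12 and 0.070). The shortfall went from 9.51 to 6.56 percentage points in the series list and from 15.5 to 10.8 in replicate 1. In replicate 2 it stayed about as large (12.0 and 11.6).

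The centre of II held about the share of peaks that its length gives. It had 49.6% (45.5 to 53.8) of the series-list peaks, 48.0% (41.7 to 54.5) of replicate 1 and 52.5% (47.3 to 57.6) of replicate 2, and the exact binomial test against 50% gave adjusted p = 0.90, 0.75 and 0.75. V had 57.2% of its series-list peaks in its centre (exact binomial test, adjusted p = 0.0027).

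Right-arm peaks of II were also wider at the median and covered more of their arm. The median width in the series list was 232 bp on the left arm, 270 bp in the centre and 294 bp on the right arm. In replicate 1 it was 422, 522 and 579 bp, and in replicate 2 it was 803, 847 and 863.5 bp. Peaks covered 0.84% of the left arm in the series list against 1.88% of the right arm, 0.48% against 1.43% in replicate 1 and 1.65% against 3.32% in replicate 2. The authors' scores, whose scale is not stated, were compared only as percentiles, the share of autosomal peaks of the same list with a lower score. The median percentile in the series list was 45.8 on the left arm, 47.6 in the centre and 58.5 on the right arm. It was 39.6, 54.8 and 58.0 in replicate 1, and 47.7, 43.6 and 55.6 in replicate 2, where the centre was lowest. Among the strongest 25% of the list were 19.1% of the left-arm, 25% of the centre and 29.6% of the right-arm peaks in the series list. In replicate 1 these shares were 14.6%, 32.7% and 28.2%, with the centre highest, and in replicate 2 they were 21.5%, 24.9% and 34.0%. These differences among the parts of II were not tested.

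Counted in windows of 500 kb, the peaks of II were uneven. Over its 30 full windows the series list had 10 to 39 peaks with a median of 16, replicate 1 had 1 to 23 with a median of 8, and replicate 2 had 2 to 21 with a median of 11. The 3 fullest windows of the series list were at 13500001 to 14000000 with 39 peaks, 5 to 5.5 Mb with 33 and 14 to 14.5 Mb with 32. Replicate 1 had 23, 13 and 12 peaks there, and replicate 2 had 16, 20 and 21. All 3 thus lay above the median of II in every list, but the replicates ordered them differently. The emptiest window of the series list was at 2 to 2.5 Mb, with 10 peaks there and 2 in each replicate. In replicate 2 that was the lowest count of all 162 full autosomal windows, whereas in replicate 1 the emptiest window of II was at 7.5 to 8 Mb with 1 peak. Next came 1 to 1.5 Mb, with 11 series-list peaks, 2 in replicate 1 and 9 in replicate 2. The window at 0.5 to 1 Mb had 12, 3 and 7 peaks, and tied with 6 to 6.5 Mb in the series list. The 5 windows of the first 2.5 Mb had 10 to 15 series-list peaks each, below the median of II.

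The variance of the window counts divided by their mean was 2.79 on II in the series list, against 1.54 to 2.12 on the other 4 autosomes. In replicate 2 it was 1.63 against 1.08 to 1.41. In replicate 1 it was 2.67 on II, with III higher at 3.22 and the others at 1.97 to 2.05. The values of II include the window at 13500001 to 14000000, its fullest in the series list and in replicate 1. They were not computed without that window, so they do not show that II is uneven along its whole length. Window counts of the 2 replicates were related on II with Pearson's r = 0.66 and Spearman's rho = 0.69 over 30 windows, and on the other autosomes r was 0.52 to 0.76. Without the window at 13500001 to 14000000, r on II was 0.72 and rho was 0.67 over 29 windows. This is a description, since windows share their libraries and neighbours.

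**Figure D2:**
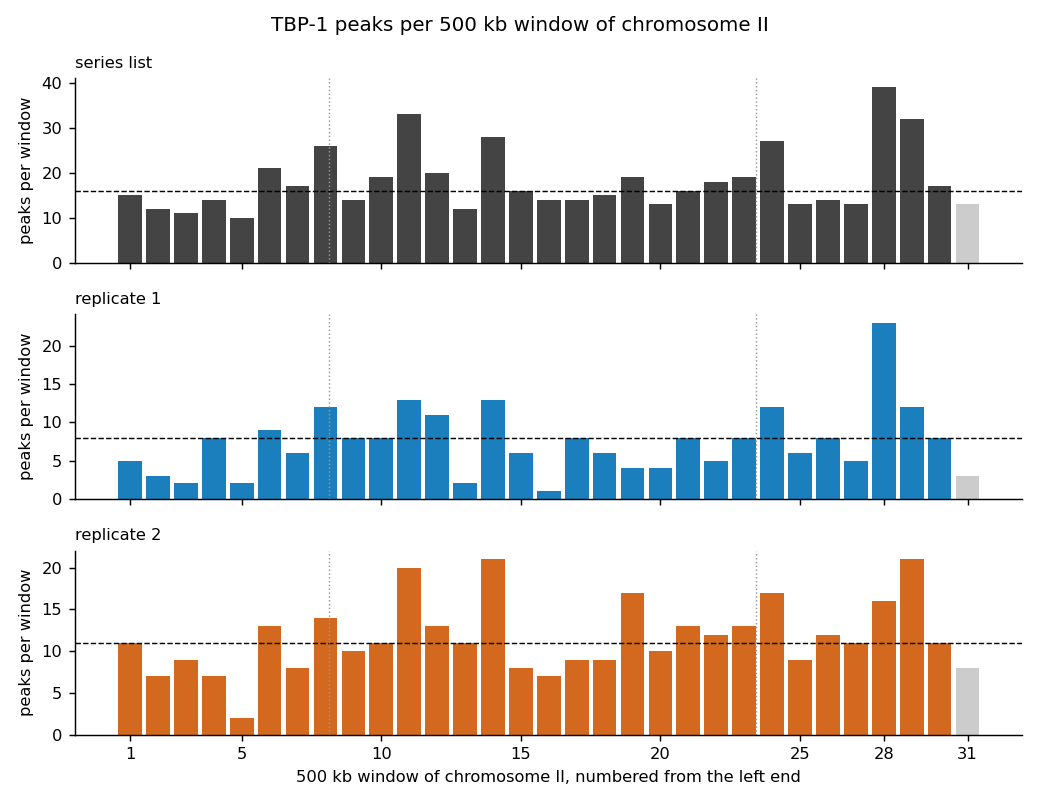
Peaks per 500 kb window of chromosome II, numbered from the left end, in the series list, replicate 1 and replicate 2. Dashed lines are the median of the full windows (16, 8 and 11), dotted lines part the arms from the centre, and the last window, which is shorter, is pale. Window 28, at 13500001 to 14000000, stands highest in the series list (39) and in replicate 1 (23) but not in replicate 2 (16).

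The stretch at 13500001 to 14000000 was named from earlier results of these data and is described without a test. It makes up 3.27% of II. It held 23 of the 229 replicate 1 peaks of II (10.0%, 6.79 to 14.6), 16 of 360 in replicate 2 (4.44%, 2.75 to 7.10) and 39 of 564 in the series list (6.91%, 5.10 to 9.31). By number it ranked 2 of 162 autosomal windows in replicate 1 and in the series list, and 30 in replicate 2. By base pairs covered the lists were closer. It ranked 4 in replicate 1 with 17167 bp, 4 in the series list with 18768 bp, and 2 in replicate 2 with 29578 bp. Replicate 2 thus had fewer peaks there, with a median width of 877.5 bp against 562 bp in replicate 1. Its peaks were also wider on II as a whole (medians of 841.5 and 526 bp). A single replicate 2 peak of 12853 bp made up a large part of its 29578 bp. Of the replicate 1 peaks in the window, 21 of 23 overlapped a replicate 2 peak (all of II 87.3%; all autosomes 83.9%). Among these 21, 8 overlapped the same replicate 2 peak, the one of 12853 bp. In the other direction, 12 of the 16 replicate 2 peaks overlapped a replicate 1 peak (all of II 48.9%; all autosomes 49.6%). When peaks closer than 500 bp were merged, the window held 19 peaks in replicate 1 and 15 in replicate 2. The ranks by number depended on the window edges. With windows shifted by 250 kb, the one at 13.75 to 14.25 Mb ranked 2 of 161 in replicate 1, with 22 peaks. It ranked 1 in the series list with 46 and 5 in replicate 2 with 21. With windows of 1 Mb, 13 to 14 Mb held 28 peaks in replicate 1, 52 in the series list and 27 in replicate 2. The one at 5 to 6 Mb held 24, 53 and 33 in that order.

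A single run of peaks was 1 peak in replicate 2 and 8 in replicate 1. Replicate 2 had 1 peak from 13817026 to 13829878, its widest on II at 12853 bp, with a score of 3100. Inside it lay 8 peaks of replicate 1 and 12 of the series list. No other replicate 2 peak on the autosomes held more than 4 replicate 1 peaks or 7 series-list peaks. In replicate 1 and in the series list, 6 peaks of the run were over 1 kb wide, and they followed each other at near-even steps. In the series list these 6 were 1088 to 1175 bp wide, their midpoints were 1568 to 1880.5 bp apart, and their percentiles were 88.8 to 90.8. In replicate 1 they were 1194 to 1341 bp wide with steps of 1624.5 to 1907.5 bp, scores of 1386.52 to 1768.42 and percentiles of 83.6 to 88.1. Beside the wide peaks the series list had 4 small ones of 146 to 231 bp in the run, at percentiles of 15.1 to 35.2, and no replicate 1 peak of the run was that narrow. In all, 18 of the 564 series-list peaks of II were over 1 kb wide (3.19%; all autosomes 3.56%), so this run held 6 of them. Of the replicate 1 peaks of II 20 of 229 were that wide (8.73%; all autosomes 10.1%), and of the replicate 2 peaks 109 of 360 (30.3%; all autosomes 29.2%). The run ended with a pair of smaller peaks at 13828092 to 13828718 and 13829196 to 13829678, at percentiles of 77.7 and 78.0 in the series list and of 28.1 and 33.7 in replicate 1.

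**Figure D3:**
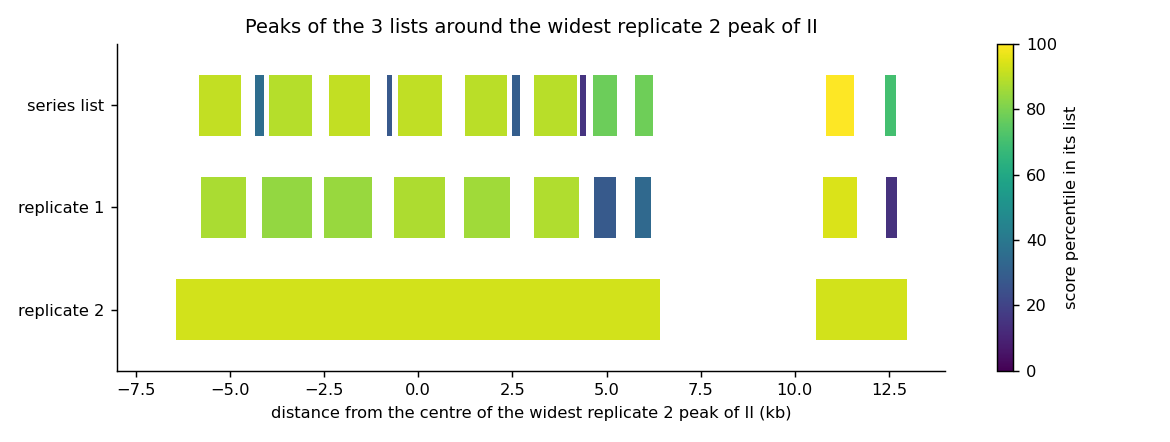
Peaks of the series list, replicate 1 and replicate 2 around the widest replicate 2 peak of II, by distance from its centre in kb. Each box spans a peak and its colour is the score percentile in its own list. The single 12853 bp box of replicate 2 lies over 8 peaks of replicate 1 and 12 of the series list, of which 6 in each are over 1 kb wide.

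For names and gene order only, a RefSeq table on the build WBcel235 was used. In it II carries 14 genes named his, the worm's histone genes, and 13 of them, from his-16 to his-42, follow each other with no other protein-coding gene between them. That is the longest such run of the nuclear chromosomes, ahead of 8 on V and 4 on IV. Core histone proteins package DNA, and their clustered genes are transcribed mainly when cells copy their DNA. Whether the run of peaks lies at these genes was not examined, because positions are not moved between builds.

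The strongest series-list peak of II lay just right of that run, at 13834287 to 13835019. Its score was 246.22 in the series list, 2492.26 in replicate 1 (percentile 94.4) and 3100 in replicate 2 (percentile 93.3). Replicate 2 had the score 3100, which many of its peaks share, at each of the 10 strongest series-list peaks of II. The next were 5292021 to 5292659 (series score 242.88, replicate 1 score 1971.25), 14803942 to 14804932 (240.28 and 3100), 11484369 to 11485180 (240.17 and 3100) and 11960259 to 11961240 (239.01 and 3100). The remaining 5 began at 11959048, 12494059, 14635047, 6852872 and 7001296, with series scores of 229.84 to 238.18. Of these 10 peaks 7 lay on the right arm, 3 in the centre and 0 on the left arm. All series-list peaks of II were 30.0% on the right arm, 49.6% in the centre and 20.4% on the left arm. With 10 peaks, this difference was not tested. The 10 were 539 to 1291 bp wide in the series list. A pair of them, at 11959048 and 11960259, fell inside 1 replicate 2 peak of 2744 bp.

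By series-list score, the widest series-list peaks of II were not its strongest. The widest spanned 8288303 to 8292754, 4452 bp, at percentile 80.7, and its counterparts in replicate 1 and replicate 2 were 4541 and 5791 bp wide with a score of 3100 each. The others were 12843646 to 12846154 (2509 bp, percentile 77.4), 11758426 to 11760923 (2498 bp, 95.5), 5144834 to 5146762 (1929 bp, 71.8) and 13984799 to 13986694 (1896 bp, 74.1). In that order their counterparts scored 3100, 2352.1, 1203.6 and 788.92 in replicate 1, and 3100, 3100, 540.9 and 453.45 in replicate 2. All 5 overlapped a peak in each replicate.

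Peak widths on II were close to those of the other autosomes. The median was 267 bp in the series list (quartiles 194 and 416.25), 526 bp in replicate 1 (330 and 691) and 841.5 bp in replicate 2 (737.75 and 1058). The other 4 autosomes together had medians of 270, 510 and 836 bp. Peaks covered 1.32% of II in the series list, 0.91% in replicate 1 and 2.45% in replicate 2, against 1.52%, 1.09% and 2.53% of the other autosomes. In replicate 1 and the series list II had the lowest coverage of the 5 autosomes, and in replicate 2 V was lower at 2.10%.

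Strong peaks were about as common on II as elsewhere. Among the strongest 25% of the autosomal peaks were 142 of 564 series-list peaks of II (25.2%, 21.8 to 28.9; all autosomes 25%), 64 of 229 in replicate 1 (27.9%, 22.5 to 34.1; all autosomes 24.9%) and 97 of 360 in replicate 2 (26.9%, 22.6 to 31.8; all autosomes 25%). The differences from the other 4 autosomes were 0.22, 3.64 and 2.38 percentage points, and none passed Fisher's exact test (adjusted p = 0.95, 0.76 and 0.76 over 15 tests). The median percentile on II was 51.3, 53.6 and 47.2 in that order of lists.

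Neighbouring series-list peaks of II were separated by a median of 13577 bp (quartiles 3282.5 and 34621), against 13513 bp on the other autosomes. The median distance was 39310 bp in replicate 1 and 21691 bp in replicate 2, against 30975 and 22676 bp. Neighbours closer than 1 kb made up 83 of 563 pairs in the series list (14.7%, 12.1 to 17.9), 38 of 228 in replicate 1 (16.7%, 12.4 to 22.0) and 31 of 359 in replicate 2 (8.64%, 6.15 to 12.0). The other autosomes had 14.5%, 13.7% and 8.87%, inside the interval of II in each list.

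Long stretches of II held no peak. Gaps of 100 kb or more between neighbouring series-list peaks numbered 31 and took up 27.1% of II. The other autosomes ranged from 11.2% on III to 28.04% on V. Such gaps took up 68.3% of II in replicate 1 (60 gaps) and 39.2% in replicate 2 (37 gaps), where the other autosomes had 61.0% to 71.0% and 28.8% to 52.1%. II was thus next to V in all 3 lists. By arm, the series-list gaps of this length numbered 12 on the left arm, 15 in the centre and 4 on the right arm. The centre is 50% of the length and each arm 25%, so these counts are not per length. In replicate 1 they numbered 16, 31 and 13, and in replicate 2 they numbered 13, 17 and 7.

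The 5 longest series-list gaps of II were 9775068 to 9984743 (209676 bp), 5845234 to 6054658 (209425 bp), 10563648 to 10761787 (198140 bp), 2304884 to 2497415 (192532 bp) and 4706607 to 4881777 (175171 bp). No replicate 1 or replicate 2 peak had its midpoint in any of them. Replicate 2 had a gap of 471805 bp on II, from 2025342 to 2497146, the longest of its autosomal gaps. That stretch held 7 series-list peaks and 1 replicate 1 peak. The longest gap of replicate 1 on II, 629826 to 977085 (347260 bp), held 4 series-list peaks and 2 of replicate 2. Gaps were measured between peaks, and depth is unknown, so weak binding in them cannot be told from none.

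**Figure D4:**
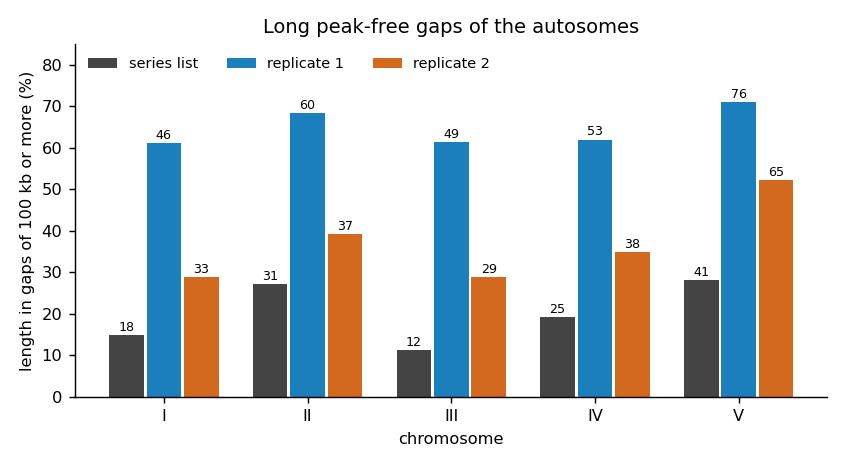
Share of each autosome, in %, that lay in peak-free gaps of 100 kb or more in the series list (grey), replicate 1 (blue) and replicate 2 (orange). Numbers above the bars count the gaps. II (27.1%, 68.3% and 39.2%) stands next to V in each list.

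Most replicate 1 peaks of II had a counterpart in replicate 2. Of 229, 200 shared at least 1 bp with a replicate 2 peak (87.3%, 82.4 to 91.0; all autosomes 83.9%). In the other direction 176 of 360 replicate 2 peaks overlapped a replicate 1 peak (48.9%, 43.8 to 54.0; all autosomes 49.6%). The differences from the other 4 autosomes were 4.13 and -0.90 percentage points, and neither passed Fisher's exact test (adjusted p = 0.33 and 0.82 over 10 tests). With midpoints required within 100 bp of each other, 59.4% of the replicate 1 peaks of II had a counterpart, below the 63.3% of the others (Fisher's exact test, adjusted p = 0.45). No replicate 1 peak of II overlapped 2 replicate 2 peaks, whereas 16 replicate 2 peaks of II overlapped at least 2 replicate 1 peaks (4.44%). The other autosomes were alike, with 0 of the former and 11 to 15 of the latter on each (2.73% to 3.66%). Across the 176 shared replicate 2 peaks of II, score ranks in the replicates were related with Spearman's rho = 0.88, and on the other autosomes rho was 0.80 to 0.89. This is a description over peaks of 1 pair of libraries.

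Unshared peaks of II were weak and narrow. The 29 replicate 1 peaks without a counterpart had a median percentile of 19.4 and a median width of 325 bp, against 57.9 and 546 bp for the 200 shared ones. In replicate 2 the 184 unshared peaks had a median percentile of 28.5 and a width of 763.5 bp, against 76.9 and 997.5 bp for the 176 shared ones. The strongest unshared replicate 1 peak lay at 6506161 to 6508659, 2499 bp wide with a score of 677.14. The next 4, which began at 2898485, 3944501, 5097126 and 501538, had scores of 124.86 to 161.03. The strongest unshared replicate 2 peak lay at 9631637 to 9633224 with a score of 900.33. The next 4, which began at 1246591, 11042402, 12102141 and 4208873, had scores of 380.79 to 523.71. All 10 were also in the series list, at percentiles of 13.98 to 79.1. Most replicate peaks were: 97.4% of replicate 1 and 94.4% of replicate 2 on II (all autosomes 94.8% and 93.6%). Of the unshared peaks of II, 23 of 29 in replicate 1 and 164 of 184 in replicate 2 overlapped the series list.

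In the series list, 202 of the 564 peaks of II overlapped peaks of both replicates (35.8%, 32.0 to 39.9; all autosomes 33.9%). A further 181 overlapped replicate 2 only (32.1%; all autosomes 30.6%), 25 replicate 1 only (4.43%; all autosomes 5.61%) and 156 neither (27.7%; all autosomes 29.9%). The share in both was 2.33 percentage points above that of the other 4 autosomes, which did not pass Fisher's exact test (adjusted p = 0.51 over 5 tests). How the series list came about is not given in the sources used here, so a counterpart in the replicates does not count as independent support. By arm, both replicates supplied a counterpart for 36 of 115 left-arm peaks (31.3%, 23.5 to 40.3), 94 of 280 in the centre (33.6%, 28.3 to 39.3) and 72 of 169 on the right arm (42.6%, 35.4 to 50.1). These intervals overlap.

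Counterparts followed score on II as on the other autosomes. Among the strongest 25% of the autosomal series list, 139 of 142 peaks of II were in both replicates (97.9%, 94.0 to 99.3) and 0 of 142 in neither, which allows a share of up to 2.11% (3 counts). In the weakest 25%, 4 of 127 were in both (3.15%, 1.23 to 7.82) and 83 in neither (65.4%, 56.7 to 73.1). The other autosomes had 96.4% and 2.18% in both.

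**Figure D5:**
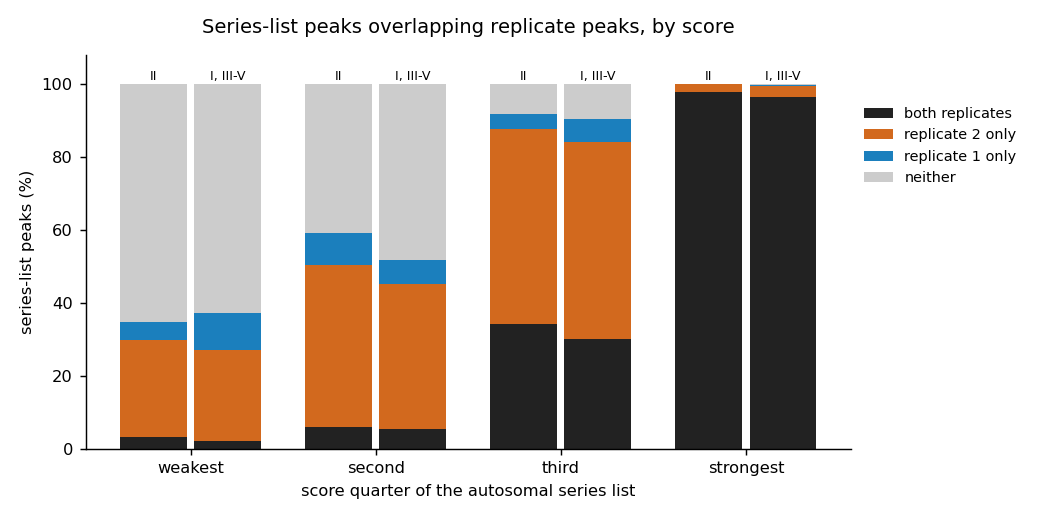
Series-list peaks, in %, that overlapped peaks of both replicates (black), replicate 2 only (orange), replicate 1 only (blue) or neither (grey), by score in 4 equal parts of the autosomal series list, for II (left bar of each pair) and the other 4 autosomes (right bar). From the weakest to the strongest part the share in both goes from 3.15% to 97.9% on II and from 2.18% to 96.4% on the others.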

How the data were processed

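Per the submitters' processing notes, reads were aligned with BWA, and ce10 is named as the build. Per the file headers, peaks are on WormBase WS220 and were called with MACS (replicates) or MACS v2 (series list). For settings, control library, filters and the making of the series list nothing is stated in those sources. The series list was treated as pooled, with no SD or n. The score of each peak is as deposited by the authors, with no stated scale, and was used only as a rank within a list. The deposited start and end columns gave positions and widths. No read counts are given, so the depth is unknown, and 95% Wilson intervals cover the counting of peaks only.

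Peaks on the 5 autosomes were analysed in each list. Lengths ran to the last peak end found on a chromosome in the 3 lists. Shares were tested with two-sided exact binomial tests against length and with two-sided Fisher's exact tests of each autosome against the other 4, with Benjamini-Hochberg adjustment and a threshold of 0.05. The exact binomial tests and Fisher's exact tests of strong peaks were run on simulated lists, with outcomes not given here. For Fisher's exact tests of overlap between lists, only the counting of overlaps was checked. These checks do not settle whether dependence between neighbouring peaks makes the p values too small. The members, the windows and the lists were chosen with earlier results of these data known. Peaks were named by a rule: the 10 strongest and 5 widest of the series list, the 5 strongest of each replicate without a counterpart, the peaks at 13500001 to 14000000, the 5 longest gaps, and the 3 fullest and 3 emptiest windows. Alternatives covered strength, merging, overlap, list length, arm size, windows and each replicate left out. Gene names came from a table of WBcel235, without its coordinates. Software was Python 3.11.15 with scipy 1.17.1, pandas 2.3.3, numpy 2.4.6 and matplotlib 3.10.9.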

Additional observations from a re-analysis of the deposited data

How the results depend on the processing

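The share of autosomal peaks on II stayed below its length share in all 21 alternatives with an expected share or covered base pairs. Some of these could not differ from the main result. Length from first to last peak was the same as the length used, and replicate 1 was already the shortest of the equally long lists. The II share passed the exact binomial test with X included in the series list (13.4%) and replicate 2 (13.53%). The series-list share without the window at 13500001 to 14000000 was 16.3%, from which nothing is read, since taking the fullest window from II alone lowers its share by construction. The left share of arm peaks stayed below expectation throughout. Its call was lost with the middle 33.3% as the centre in the series list (43.6%) and replicate 1 (40.4%), without that window (46.9%, 42.7% and 41.9% in the series list, replicate 1 and replicate 2, against 53.5% of the length in place of 50%, which left the replicate 2 shortfall about as large), and in the series list with the peaks of the 12853 bp run counted as 1 (42.1%). It was also lost as a difference from the other autosomes (-8.57, -11.9 and -9.22 percentage points). The settings without the window, with X, with the run counted as 1 and against the other autosomes were chosen after seeing the data. The replicate 2 centre share turned to 48.3% with the stronger 50% of peaks, and its share among the strongest peaks turned below that of the others at the strongest 50% (47.8%). With midpoints within 100 bp, II turned below the others for series-list peaks in both replicates (23.9%) and replicate 1 peaks in replicate 2 (59.4%). For replicate 2 peaks in replicate 1, II turned above them with the stronger 50% (60.5%) and equally long lists (70.4%). The values that turned had no call. The window held 10.4% of the series-list peaks of II found in both replicates. The cause was not tested for these changes. Leaving out 1 of 2 replicates only returns the value of the other, so it is no separate check. The II share was then 17.5% to 17.7%, the centre share 48.0% to 52.5% and the left share 34.5% to 38.0%. The strongest 25% had 26.9% to 27.9% and the window's share was 4.44% to 10.0%. No paired analysis was possible because only 1 group, the ChIP samples, had values. Unknown depth limits what a missing weak peak shows.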

Other observations

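The left tip of II carried a peak in every list, starting at base 1. It was 419 bp wide in the series list (percentile 76.0), 468 bp in replicate 1 (57.5) and 761 bp in replicate 2 (60.3). The other 4 autosomes also had a peak that began within 1 bp of their first base in all 3 lists. Worm chromosome ends are known to carry arrays of a short telomere repeat. At the right tip of II the last series-list peak, 15279040 to 15279375, set the length used here, so its distance to the end was not measured. The last peak of II ended 105935 bp before that point in replicate 1 and 15707 bp before it in replicate 2. The part of repeated sequence in these values was not tested.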
